A study of Mus musculus with 12 samples.

Results

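The genes described here are those of the untreated wild-type (WT) mouse hippocampus in the first days after birth: every gene whose FPKM (fragments per kilobase of transcript per 1e6 mapped fragments) was at least 1 in each of the 3 WT libraries. That rule took 14789 of the 29454 genes of the deposited table, and 12318 of them, or 83.3%, are protein-coding. They make up 66.8% of the 18439 protein-coding genes listed. The study compared pups with different transgenes in 12 hippocampus libraries, and only the 3 libraries named WT 1, WT 2 and WT 3 are used here. These pups carried no transgene and were littermates of CaMKIIα-tTA and Tg-CX3CL1-ct/tTA pups. The Tg-CX3CL1-ct line had been crossed to C57BL/6J mice for 6 generations, and the strain label is C57/BL6. The sample labels give the age as P4, postnatal day 4, while the design text of the series gives P0. No label gives the sex of the pups, a litter, a batch or whether tissue was pooled, and none says that each library came from a different animal. The labels therefore do not say whether the spread over the 3 libraries is technical, biological or both.

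The hippocampus holds the pyramidal neurons of the CA fields, the granule neurons of the dentate gyrus, GABAergic interneurons and glia. In the early postnatal mouse, pyramidal neurons have been born and are extending axons and dendrites, while granule neurons are still being made. Synapses, astrocytes and oligodendrocytes mature over the following weeks. Many protein families exchange an early member for a later one over this time, among them subunits of glutamate and GABA receptors, sodium channels and chromatin complexes. In bulk tissue, fewer cells of a type and less RNA per cell cannot be told apart, so every level below is a level in the dissected tissue.

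The 3 libraries were alike over most genes and stood apart in a few groups. Across the 14789 genes, which are not independent of one another, Pearson's r of log2 FPKM was 0.967 between WT 1 and WT 2, 0.979 between WT 1 and WT 3 and 0.988 between WT 2 and WT 3. The FPKM of all genes summed to 622577, 602308 and 592476, and 15547, 15788 and 15856 genes reached 1 FPKM. Short non-coding RNA genes held 48.1% to 51.3% of each sum. From unspliced genes, the depth was estimated at 13.2, 11.0 and 12.0 in units of 1e6 fragments, assuming fragments of 180 nt. Each is the commonest depth, within a preset range, that these genes give if a value stands for 1 fragment. The same figures, 11.0 to 13.2, are the fragments behind 1 FPKM over 1 kb of transcript beyond the fragment length. A transcript of 1 kb has fewer. Counts are not in the table, so this remains an estimate and no counting interval is given. Values are given below in the order WT 1, WT 2 and WT 3, and SD is over these 3 libraries.

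Genes that mark striatal projection neurons, which lie outside the hippocampus, were lowest in WT 1. The 16 striatal markers had medians of 2.36, 18.8 and 13.1 FPKM, and all 16 were highest in WT 2. Penk, the precursor of the enkephalins, was at 2.52, 35.2 and 23.8 FPKM. Drd1, the D1 dopamine receptor, was at 2.20, 17.5 and 13.1 FPKM, and Foxp2, a forkhead factor of the neocortical list that striatal neurons also express, was at 1.42, 23.0 and 15.5 FPKM. WT 1 was thus far below the other libraries for each of these genes, and no gene of the list was below 1 FPKM in every library. Meis2 and Pde10a had the highest means of the striatal list. Meis2, a homeobox factor, was at 20.9, 77.7 and 62.8 FPKM, and Pde10a, a phosphodiesterase, was at 19.8, 68.0 and 53.5 FPKM. Both were therefore present at about 20 FPKM in WT 1 as well.

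Choroid plexus genes showed the opposite order. Ttr, which encodes the transthyretin that the choroid plexus secretes, was at 2284, 295.1 and 1120 FPKM. Enpp2, autotaxin, was at 40.3, 13.9 and 27.7 FPKM, and Folr1, a folate receptor, was at 14.6, 2.39 and 7.04 FPKM. Of the 13 choroid plexus genes, 12 were highest in WT 1, and the list medians were 6.22, 1.93 and 3.87 FPKM. Genes of pyramidal neurons shared this order in part, while neocortical genes were divided, 5 of 12 being highest in WT 1 and 5 in WT 2. Slc17a7, the vesicular glutamate transporter VGLUT1, was at 134.2, 49.9 and 80.2 FPKM, and Fezf2, a factor of cortical projection neurons, was at 23.2, 10.5 and 13.3 FPKM. Ttr, Enpp2, Folr1, Slc17a7 and Fezf2 were all highest in WT 1 and lowest in WT 2, and 11 of the 16 CA field genes were highest in WT 1.

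Each library also held RNA of genes from both sexes. Xist, the RNA that coats the inactive X chromosome in females, was at 6.38, 113 and 74.1 FPKM. Eif2s3y, on the Y chromosome, was at 21.7, 1.35 and 11.6 FPKM. Ddx3y, Kdm5d and Uty, all on the Y, were likewise highest in WT 1 and lowest in WT 2, with Ddx3y at 13.2, 1.32 and 7.10 FPKM. No library was at 0 for Xist or for any of the 4 Y genes. Among the 47 protein-coding genes with a mean of at least 5 FPKM and a highest library at least 3 times the lowest, WT 3 lay between WT 1 and WT 2 in 47 of 47. With a ratio of at least 2, WT 3 lay between in 131 of 135, and over all 12318 protein-coding genes in 6536, or 53.1%. On the line from WT 1 to WT 2, the WT 3 value of those 47 genes had a median position of 0.640, with quartiles of 0.603 and 0.689. What sets this order was not tested, and the makeup of the dissected tissue, the sex of the pups and the library cannot be told apart here.

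**Figure D1:**
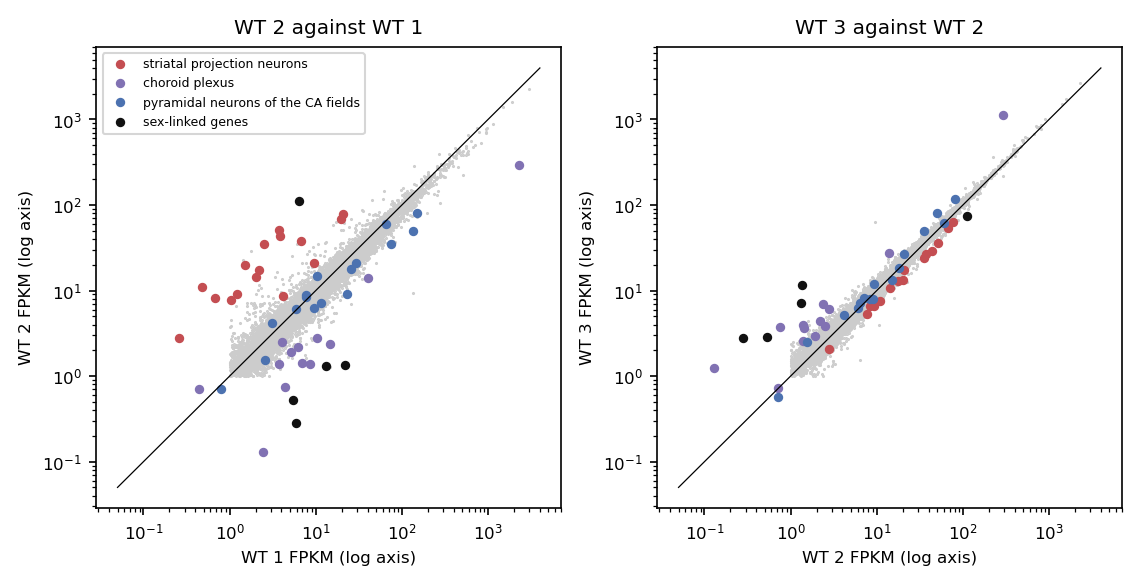
FPKM of protein-coding genes in WT 2 against WT 1 (left) and in WT 3 against WT 2 (right), both axes logarithmic, with grey dots for single genes, coloured dots for marker lists, values under 0.05 drawn at 0.05 and the diagonal for equal values. Striatal genes lie above the diagonal on the left and close to it on the right, while Ttr, the violet dot at the far right, falls from 2284 FPKM in WT 1 to 295.1 FPKM in WT 2.

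The most abundant messages encode the cytoskeleton of growing neurons and the translation machinery. Tuba1a, an alpha tubulin, led the protein-coding genes at 2973, 2299 and 2636 FPKM, with a mean ± SD of 2636 ± 337 (n = 3). Actb, beta actin, followed at 1903, 1580 and 1747 FPKM, and Eef1a1, a translation elongation factor, at 1497, 1413 and 1531 FPKM. No library was under 1413 FPKM for any of these 3 genes. Ttr followed by its mean of 1233 ± 999 FPKM, and without WT 1 its rank among protein-coding genes fell from 4 to 11. Tmsb4x, which binds actin monomers, was at 1158, 894.8 and 1003 FPKM.

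The next 10 genes stood at means of 596 to 875 FPKM. They were the ribosomal genes Rpl41 and Rplp1, the beta tubulins Tubb2b, Tubb5 and Tubb3, the calmodulins Calm2 and Calm3, Nnat, Fabp7 and Cfl1. Tubb3, the beta tubulin used as a marker of young neurons, varied most of these 10, at 823.9, 529.8 and 632.2 FPKM. Nnat, neuronatin, an imprinted gene of developing brain, varied least, at 748.9, 802.7 and 766.5 FPKM. Fabp7, the fatty-acid binding protein of radial glia and young astrocytes, was at 590.5, 663.7 and 673.1 FPKM. Tubulins, calmodulins, actins, Eef1a1 and ribosomal proteins have near-identical copies, so the split of reads between copies is uncertain. Tuba1a, Eef1a1, Nnat and Cfl1 also share exon bases with another annotated gene, as do 4547 of the 12318 protein-coding genes, and no source says if counting took account of strand.

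The coding message was spread over many genes. The 15 highest protein-coding genes held 5.87% of the FPKM sum of protein-coding genes, the 100 highest 16.1% and the 500 highest 33.8%. By mean, 5961 protein-coding genes stood at 1 to 10 FPKM, 6018 at 10 to 100, 334 at 100 to 1000 and 5 above 1000. Non-coding genes ranked above these: 29 of the 50 highest genes of any kind were small RNA genes. Rn7sk, which holds back transcription elongation, was at 86660, 85042 and 85412 FPKM, and Rny3, a Y RNA, was at 83625, 94729 and 83401 FPKM. Of the 140 small RNA genes, 119 are under 300 nt, and FPKM of such short genes are no measure of abundance beside longer genes.

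Long non-coding genes and microRNA host genes were named after their values were seen. Malat1, a nuclear RNA, was at 1530, 2093 and 1855 FPKM. Rian and Meg3, from the imprinted Dlk1-Dio3 region of chromosome 12, were at 702.5, 876.1 and 889.5 FPKM and at 337.9, 387.8 and 376.5 FPKM. Mirg, from the same region, was at 22.1, 24.6 and 25.7 FPKM, and 14 microRNA hairpins lie within it. The spread of these 3 imprinted RNAs was small beside their level. Mir124-2hg and Mir124a-1hg, hosts of the neuronal miR-124, were at 27.9, 42.0 and 32.9 FPKM and at 35.5, 31.0 and 33.3 FPKM.

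Host genes of microRNAs of both progenitors and neurons were present. Mir99ahg, whose body holds hairpins of miR-99a and let-7c, was at 26.5, 28.0 and 30.2 FPKM, and Mir9-3hg, a host of the neural miR-9, was at 8.34, 8.84 and 7.82 FPKM. Mir17hg, the host of the miR-17-92 cluster known from dividing cells, was at 2.54, 3.63 and 3.09 FPKM. Mature microRNAs were not measured in these libraries, so only the hosts have levels. The mature sequences of 5 microRNAs within these hosts are shown because they mark progenitor and neuronal hosts, as RefSeq gives them for GRCm38.p6, with bases 2 to 8, the seed, in capitals.
let-7c-5p: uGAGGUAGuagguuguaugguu
miR-99a-5p: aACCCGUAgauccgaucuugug
miR-9-5p: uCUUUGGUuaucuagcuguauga
miR-17-5p: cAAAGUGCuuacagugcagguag
miR-20a-5p: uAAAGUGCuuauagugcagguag
The last pair, both within Mir17hg, has the same seed, and the other 3 each have a seed of their own.

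Genes of young neurons had the highest list medians of all marker lists. The counts of genes that passed, here and in the lists below, stand beside 66.8% of all protein-coding genes. All 22 genes of the immature neuron list passed 1 FPKM, with list medians of 471.7, 384.2 and 439.9 FPKM, and their means ran from 67.9 FPKM for Sox4 to 2636 FPKM for Tuba1a. Dcx, doublecortin, a microtubule protein of migrating neurons, was at 120.4, 128.0 and 133.4 FPKM. Gap43, a growth-cone protein, was at 457.8, 412.3 and 443.5 FPKM. Those values overlapped closely among the libraries. The 4 highest of the list were Tuba1a, Tubb2b, Nnat and Tubb3, described above. Tubb2b was at 939.2, 699.0 and 844.2 FPKM.

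Genes of maturing neurons and synaptic vesicles were also all above 1 FPKM, 22 of 22, at lower medians of 59.9, 52.0 and 55.7 FPKM. Map2, the dendritic microtubule protein, was the highest at 348.7, 390.7 and 394.9 FPKM. Nrgn, neurogranin of dendritic spines, was at 280, 107 and 160 FPKM, a spread of the same order as that of Slc17a7. Syp, synaptophysin of synaptic vesicles, was at 189, 161 and 173 FPKM. Nefh, the heavy neurofilament, was the lowest of the list at 2.73, 2.58 and 2.75 FPKM.

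Genes of the pyramidal neurons of the CA fields were present. They and Prox1 of granule neurons go with the tissue label. No library of another region was used, so they do not establish it. Of 16 genes of the CA fields, 15 passed 1 FPKM, and list medians were 10.8, 9.08 and 10.05 FPKM. Neurod6, a bHLH factor of pyramidal neurons, led at 149.8, 81.2 and 117.8 FPKM. Zbtb20, a factor of the developing CA fields and dentate gyrus, was at 65.8, 60.003 and 62.3 FPKM, and Mpped1 was at 74.9, 35.4 and 50.3 FPKM. Neurod6, Slc17a7 and Mpped1 shared the order WT 1, WT 3, WT 2, while Zbtb20 differed little between libraries. Wfs1, a marker of adult CA1, was at 7.64, 8.36 and 7.97 FPKM, and Spink8 was the only gene of the list below 1 FPKM in every library, at 0.793, 0.714 and 0.566 FPKM.

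Of 10 granule neuron genes, 5 passed 1 FPKM, and the count was 7 with a minimum of 0.5 FPKM and 9 with libraries scaled without small RNA genes. The highest was Prox1, the homeobox factor of granule cells, at 14.9, 10.6 and 12.7 FPKM. Calb1, calbindin, was at 6.27, 16.2 and 12.2 FPKM, Stxbp6 at 9.23, 11.6 and 10.9 FPKM and C1ql3 at 9.55, 5.15 and 5.89 FPKM. Calb1 is expressed by striatal neurons too, and it had the striatal order of libraries. Dsp, Tdo2 and Lct, markers of adult granule cells, were below 1 FPKM in every library, at most at 0.821 FPKM for Dsp in WT 1.

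Interneuron genes passed 1 FPKM in 23 of 24. Sst, somatostatin, was the highest at 183, 152 and 150 FPKM. Npy, neuropeptide Y, was at 49.1, 78.8 and 63.5 FPKM. Gad1, which makes GABA, was at 28.2, 48.3 and 42.5 FPKM. GABA synthesis genes and the Dlx factors are shared with striatal neurons, and Gad2, at 10.6, 35.0 and 25.7 FPKM, was lowest in WT 1 as they were. Lhx6, the factor of interneurons from the medial ganglionic eminence, was more even at 11.6, 14.0 and 12.6 FPKM. Pvalb, parvalbumin of fast-spiking interneurons, was at 0.116, 0.105 and 0 FPKM, so it was nearly undetected in libraries that held Sst at 150 FPKM or more.

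Among genes of Cajal-Retzius cells, which guide migrating neurons, Reln, reelin, was the highest at 53.1, 48.1 and 52.1 FPKM. Of 9 genes of the list, 6 passed 1 FPKM, beside 66.8% of all protein-coding genes. Those that passed include Cxcr4 at 20.9, 17.2 and 18.8 FPKM, Ndnf at 8.50, 6.51 and 7.97 FPKM and Cacna2d2 at 4.05, 9.34 and 8.38 FPKM. Trp73 missed the threshold at 1.38, 0.862 and 0.851 FPKM. Lhx5 and Lhx1, defining factors of these cells, stayed below 1 FPKM in every library, Lhx1 at 0.611, 0.533 and 0.4997 FPKM. Reln is made by interneurons as well, so it does not measure these cells alone.

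Genes of progenitors were present. All 18 radial glia genes passed 1 FPKM, with medians of 22.8, 16.8 and 19.3 FPKM. After Fabp7, the highest were Slc1a3, the glutamate transporter GLAST, at 143, 131 and 142 FPKM, Ptprz1, a receptor phosphatase, at 115, 135 and 134.1 FPKM, and Vim, vimentin, at 60.2, 49.8 and 51.7 FPKM. Sox2, the stem cell factor, was at 28.0, 35.9 and 33.6 FPKM. Of 11 genes of intermediate progenitors and neuroblasts, 10 passed 1 FPKM. Elavl4, an RNA-binding protein of new neurons, led at 33.1, 32.1 and 35.0 FPKM, followed by Igfbpl1 at 22.4, 18.7 and 19.0 FPKM, Neurod1 at 24.4, 12.3 and 19.4 FPKM and Gadd45g at 7.67, 7.48 and 5.96 FPKM. Eomes, also named Tbr2, which defines intermediate progenitors, was at 4.05, 3.21 and 3.29 FPKM, and Neurod4 was below 1 FPKM in each library.

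All 30 cell cycle genes passed 1 FPKM, with medians of 4.76, 5.30 and 5.24 FPKM. Ccnd2, a cyclin of G1 that neural progenitors use, was at 26.0, 24.1 and 24.7 FPKM. Pcna, the sliding clamp of replication, was at 22.1, 25.5 and 24.3 FPKM, Top2a, a topoisomerase of S phase to mitosis, at 11.6, 15.2 and 15.4 FPKM, and Ccnd1 at 11.2, 11.6 and 11.7 FPKM. Mki67, the proliferation marker, was at 7.01, 9.71 and 9.19 FPKM. S phase genes (Pcna, Mcm6) and mitotic genes (Cdk1, Ube2c) were thus above the threshold in all 3 libraries.

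Astrocyte genes were at higher levels than those of any other glial list. Of 18 genes, 17 passed 1 FPKM, and medians were 38.1, 35.6 and 38.0 FPKM. Apoe, apolipoprotein E, was at 565, 405 and 443 FPKM, Sparcl1 at 200, 136 and 168 FPKM and Slc1a2, the glutamate transporter GLT-1, at 137, 99.6 and 122.7 FPKM. Ndrg2 hardly varied, at 84.3, 84.7 and 86.4 FPKM. Gjb6, connexin 30, which rises late in astrocytes, was at 1.25, 1.25 and 0.819 FPKM and was the only gene of the list that missed the threshold. Some of these genes, Apoe and Slc1a2 among them, are also expressed by radial glia or other cells.

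More genes of oligodendrocyte precursors than of myelinating cells passed the threshold. Olig1, at 52.9, 40.4 and 42.0 FPKM, and Pdgfra, the PDGF receptor of precursors, at 24.0, 18.8 and 20.1 FPKM, led the 8 of 10 precursor genes that passed. Lhfpl3 was at 14.3, 23.4 and 19.9 FPKM, and Gpr17, of precursors about to differentiate, at 13.1, 14.0 and 13.2 FPKM. Bmp4 and Neu4 stayed below 1 FPKM in each library. Of 12 genes of myelinating cells 5 passed, a count that was 7 with a minimum of 0.5 FPKM and 8 with libraries scaled without small RNA genes. Among the 5 were Mbp, myelin basic protein, at 17.0, 18.8 and 18.7 FPKM, Cnp, Ugt8a and Cldn11. Enpp6, Aspa, Mobp, Myrf, Mog and Opalin were below 1 FPKM in every library, and Mog and Opalin were listed at 0 in WT 1. Mbp has transcripts outside myelin, so its level does not show myelin by itself.

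Genes of microglia and vessels were at low levels. Of 21 microglia and macrophage genes, 17 passed 1 FPKM, among the highest the complement genes C1qc at 11.8, 9.51 and 9.34 FPKM and C1qa at 11.7, 6.97 and 8.17 FPKM, and the signalling adaptor Tyrobp at 10.8, 8.64 and 11.0 FPKM. Cx3cr1, the fractalkine receptor of microglia, was at 5.63, 4.30 and 5.71 FPKM, and Ptprc was below 1 FPKM in each library. Cx3cl1, which encodes the ligand of Cx3cr1, was at 42.4, 38.6 and 40.8 FPKM. Cx3cl1 is the parent gene of the transgene used in other pups of the study. Of 20 endothelial and mural genes, 19 passed, led by Rgs5 of pericytes at 40.4, 39.9 and 44.0 FPKM, Cldn5 of tight junctions at 45.3, 30.6 and 37.6 FPKM, Slco1c1 at 28.9, 25.02 and 27.9 FPKM and Itm2a at 16.8, 16.4 and 14.96 FPKM. Anpep was below 1 FPKM in each library.

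Markers of other neighbouring tissues were measured as well, and their counts too stand beside the 66.8% of all protein-coding genes that passed. Meningeal genes passed in 9 of 12, with Igf2 at 29.5, 17.8 and 24.0 FPKM, Dcn at 15.1, 10.4 and 13.4 FPKM, Col1a2 at 9.39, 7.33 and 8.16 FPKM and Col3a1 at 10.9, 5.22 and 7.04 FPKM, and 11 of the 12 were highest in WT 1. Ependymal genes passed in 9 of 12, led by Foxj1, the factor of motile cilia, at 8.47, 7.598 and 8.06 FPKM, while Hydin, Dnah11 and Spag17 were below 1 FPKM in each library. Thalamic genes passed in 8 of 10, with Slc17a6, the transporter VGLUT2, at 22.9, 16.8 and 21.3 FPKM and Zic1 at 7.97, 27.0 and 21.1 FPKM. Gbx2 and Synpo2 stayed below 1 FPKM. Zic1 had the library order of the striatal genes. Slc17a6 is also the earlier gene of a pair below, so the list does not measure thalamus alone. Neocortical genes passed in 11 of 12. Lmo4 was at 102, 156 and 138 FPKM, Bcl11b, also named Ctip2, at 37.8, 58.1 and 50.7 FPKM, Tle4 at 19.0, 26.2 and 25.3 FPKM and Cux1 at 18.8, 22.6 and 20.98 FPKM. No neocortical gene but Rspo1 was below 1 FPKM in every library. Many genes of that list are also expressed in the hippocampus, and Bcl11b in the striatum, so the list does not measure neocortex alone.

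Blood was measured through the adult-type globins. Hbb-bs, a beta globin, was at 137.6, 289.6 and 216.0 FPKM, and Hba-a1, an alpha globin, was at 45.2, 115 and 90.0 FPKM. Hbb-bt was at 12.7, 35.8 and 23.6 FPKM, and Hba-a2 at 21.6, 21.99 and 18.6 FPKM. The Hbb pair and the Hba pair are near-identical copies, so the split within each pair is uncertain. The embryonic or membrane genes Slc4a1, Hba-x and Hbb-y were below 1 FPKM in every library, and Hbb-y, the embryonic beta-type globin, was listed at 0 in each.

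**Figure D2:**
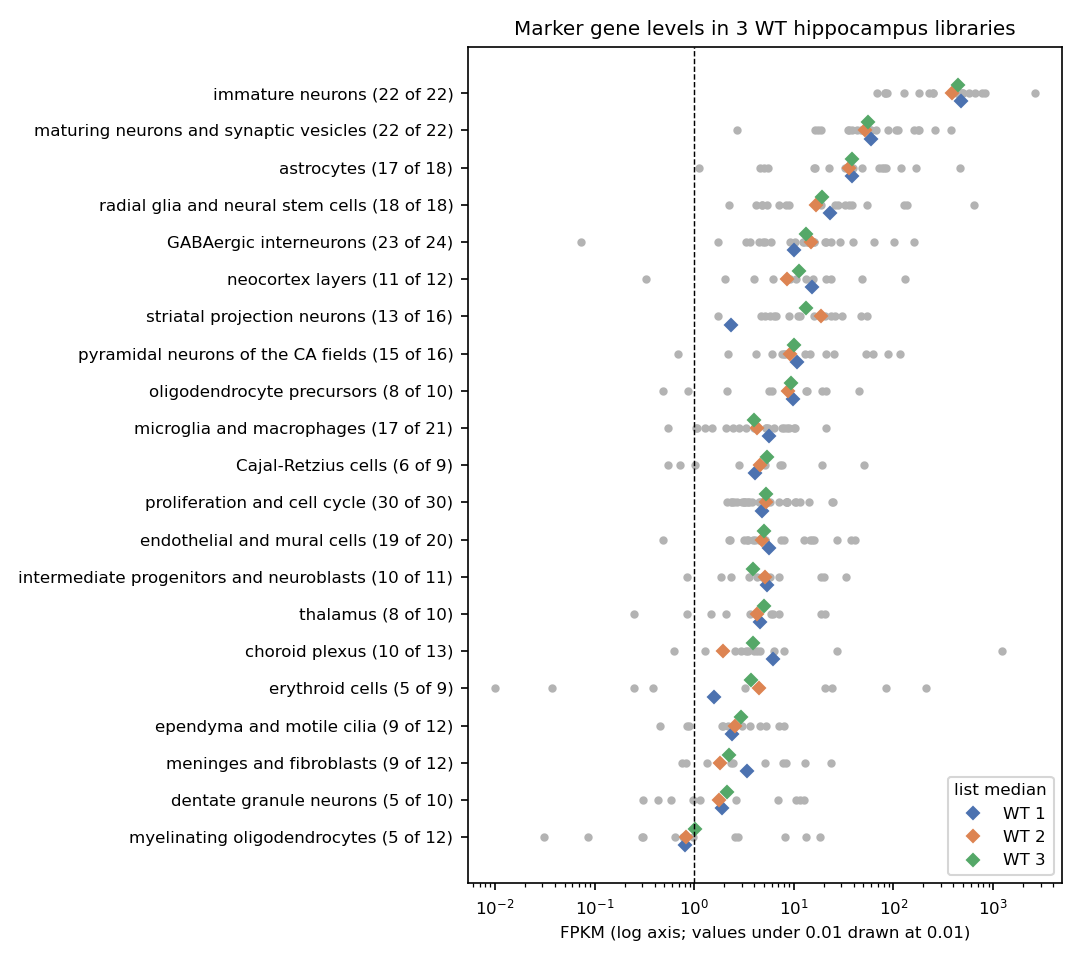
Levels of marker genes by list, with FPKM on a logarithmic axis, a grey dot for the mean of each gene over 3 libraries, a diamond for the list median in each library, and in brackets how many genes of the list reached 1 FPKM in all 3. Immature neurons stand highest with medians of 384.2 to 471.7 FPKM, myelinating oligodendrocytes lowest, and the striatal list is the widest apart between libraries, from 2.36 to 18.8 FPKM.

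Of 505 transcription factors in 29 families, 291, or 57.6%, passed 1 FPKM in all 3 libraries, beside 66.8% of all protein-coding genes. Their median mean was 7.51 FPKM, beside 10.5 FPKM over all protein-coding genes that passed. The highest, Thra, the thyroid hormone receptor alpha, was at 442.8, 281.3 and 338.8 FPKM. Thra shares exon bases with a neighbouring gene, and so do Zbtb18, Zeb2, Sox4 and Zbtb20 among the 10 highest. Zbtb18, a repressor in cortical neurons, was at 253.5, 131.8 and 186.5 FPKM, and Tcf4, an E protein that pairs with bHLH factors, was at 237.4, 134.5 and 176.7 FPKM. WT 1 was highest and WT 2 lowest for these 3, as for Neurod6.

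Sox11 and Sox4, which drive neuronal differentiation, hardly differed between libraries. Sox11 was at 83.1, 81.8 and 83.7 FPKM and Sox4 at 65.9, 68.0 and 69.8 FPKM. Zeb2 was at 94.3, 65.0 and 80.2 FPKM, and Mef2c, a factor of synapse development, at 74.2, 44.5 and 62.0 FPKM. Nfib, needed for hippocampal and glial development, was at 72.3, 62.0 and 70.6 FPKM, and all 4 NFI factors passed. Nfix followed Nfib at 59.2, 31.2 and 38.2 FPKM.

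The families differed in how many members the tissue showed. All 9 factors of the Myc, Max and Mxd family passed, 37 of 40 ZBTB factors, 16 of 18 TALE and CUT homeobox factors and 15 of 19 Sox factors. None of the 30 Hox genes did, and the highest, Hoxb3, was at 0, 0.585 and 0.190 FPKM. Hox genes pattern the hindbrain and spinal cord and are largely silent in the forebrain. Only 1 of 9 Gata and Runx factors passed, Gata2 at 1.10, 1.35 and 1.08 FPKM, and 3 of 12 LIM homeobox factors, led by Lhx2 at 36.2, 18.4 and 22.4 FPKM. Of 49 factors of the Emx, Dlx and related families 10 passed, led by Dlx1 at 9.55, 17.1 and 14.7 FPKM, and of 14 T-box factors 3, led by Tbr1 at 15.6, 6.44 and 9.43 FPKM.

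The highest members of several other families follow. Pou3f3 led the POU factors at 31.7, 29.1 and 30.6 FPKM. Foxp1 led the forkhead factors at 31.7, 62.2 and 52.0 FPKM, with WT 1 lowest. Foxp1 is a factor of striatal and cortical neurons. Id2, an inhibitor of bHLH factors, was at 78.7, 42.7 and 55.96 FPKM, and Atf4, of the stress response, at 63.2, 54.8 and 58.5 FPKM. Id2 and Atf4 were highest in WT 1 and lowest in WT 2. Sp3 was at 29.7, 36.8 and 35.5 FPKM, and Elf2, which led the ETS factors, at 13.8, 14.7 and 14.9 FPKM. Max, the partner of Myc, was at 25.5, 24.1 and 25.9 FPKM, and Smad4, the shared SMAD of TGF-beta signalling, at 19.9, 26.0 and 25.3 FPKM. Rfx3, a factor of cilia genes, was at 20.5, 23.6 and 25.8 FPKM, and Tfdp1, the partner of E2F factors, at 22.4, 22.6 and 23.7 FPKM. Stat3, Egr3, Tead1 and Lef1 led their families at means of 11.0, 7.45, 6.92 and 2.08 FPKM, with 2 of 4 TCF and LEF factors and 2 of 4 Egr factors passing.

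Of 260 receptors in 27 families, 175, or 67.3%, passed, close to the 66.8% of all protein-coding genes. Gabbr1, a subunit of the metabotropic GABA-B receptor, was the highest at 161.0, 146.1 and 154.5 FPKM, and both GABA-B subunits passed. Gria2, the AMPA subunit that limits calcium entry once edited, was at 120.2, 137.9 and 147.2 FPKM, and Gria1 was at 96.3, 92.5 and 98.8 FPKM. All 4 AMPA subunits passed, with Gria4 at 24.5, 27.9 and 26.9 FPKM and Gria3 at 15.8, 15.9 and 17.3 FPKM. The ranges of Gria1 and Gria2 did not overlap those of Gria3 and Gria4. Gria2, Grin2b and Gabra5, all among the 10 highest receptors, share exon bases with another gene.

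Grin2b, the NMDA subunit of immature synapses, was at 90.6, 81.6 and 87.2 FPKM, above the obligate subunit Grin1 at 42.3, 32.0 and 34.4 FPKM. Grin3a was at 24.6, 22.2 and 25.001 FPKM, and Grin2c and Grin3b did not pass. Grm5, the metabotropic receptor mGluR5, was at 87.3, 114.2 and 108.5 FPKM, and 7 of 8 metabotropic glutamate receptors passed, Grm6 being listed at 0 in each library. All 7 kainate and delta receptors passed, led by Grik2 at 48.1, 64.3 and 59.3 FPKM.

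GABA-A receptors passed in 13 of 19. The alpha subunit with the highest level was Gabra5, known for extrasynaptic receptors of pyramidal neurons, at 67.1, 57.4 and 69.5 FPKM. Gabrb2 was at 41.7, 44.96 and 48.5 FPKM. Gabra6, a subunit of cerebellar granule cells, did not pass, nor did the 3 rho subunits. Glrb, the beta subunit of glycine receptors, was at 41.6, 43.4 and 43.3 FPKM, and Glra2, the alpha subunit of immature neurons, at 17.7, 27.1 and 25.04 FPKM, while Glra1, the adult subunit, was at 0.0465, 0.196 and 0.0784 FPKM.

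Modulatory receptors were mostly lower. Cnr1, the cannabinoid receptor CB1, was the exception at 70.7, 63.4 and 70.3 FPKM. Adora1, an adenosine receptor, led its family at 34.7, 25.8 and 30.5 FPKM, Htr2c the serotonin receptors at 17.1, 14.6 and 16.8 FPKM and Chrm1 the muscarinic receptors, all 5 of which passed, at 16.5, 14.6 and 15.6 FPKM. Chrnb2, a nicotinic subunit, was at 11.0, 10.8 and 11.2 FPKM, and Adra2c led the adrenergic receptors at 4.75, 3.54 and 3.20 FPKM. Of 5 dopamine receptors only Drd1 passed. Drd2 was at 0.671, 8.28 and 6.52 FPKM and Drd5 at 0.578, 0.607 and 1.04 FPKM. Drd1 and Drd2 belong to the striatal list and have its library order, while Drd5 was highest in WT 3.

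Receptors for growth and guidance cues were broadly present. Ntrk2, the BDNF receptor TrkB, was at 58.5, 66.2 and 67.9 FPKM, and its relative Ntrk3 at 42.7, 47.0 and 45.9 FPKM. Epha4 was at 86.4, 72.6 and 84.3 FPKM, with 11 of 14 Eph receptors passing, and Nrp1, a semaphorin and VEGF co-receptor, at 70.1, 46.7 and 58.2 FPKM, with 10 of 11 plexins and neuropilins passing. Neo1, neogenin, was at 53.8, 49.2 and 54.0 FPKM, Fzd3 at 29.9, 40.4 and 38.5 FPKM and Fgfr1 at 36.5, 23.7 and 27.3 FPKM. All 12 TGF-beta and BMP receptors passed, led by Acvr2a at 41.9, 42.7 and 46.4 FPKM, as did the reelin receptors Lrp8 at 28.9, 26.4 and 27.5 FPKM and Vldlr at 22.9, 26.1 and 27.5 FPKM. Insr, Igf1r and Igf2r all stood between 10.7 and 12.4 FPKM in every library. Erbb4, of interneurons, was at 13.3, 17.2 and 17.2 FPKM, and Notch2 at 9.07, 7.02 and 8.07 FPKM. Of 17 chemokine receptors 4 passed, and the highest, Ackr1 at 20.5, 19.6 and 17.2 FPKM, shares exon bases with another gene.

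**Figure D3:**
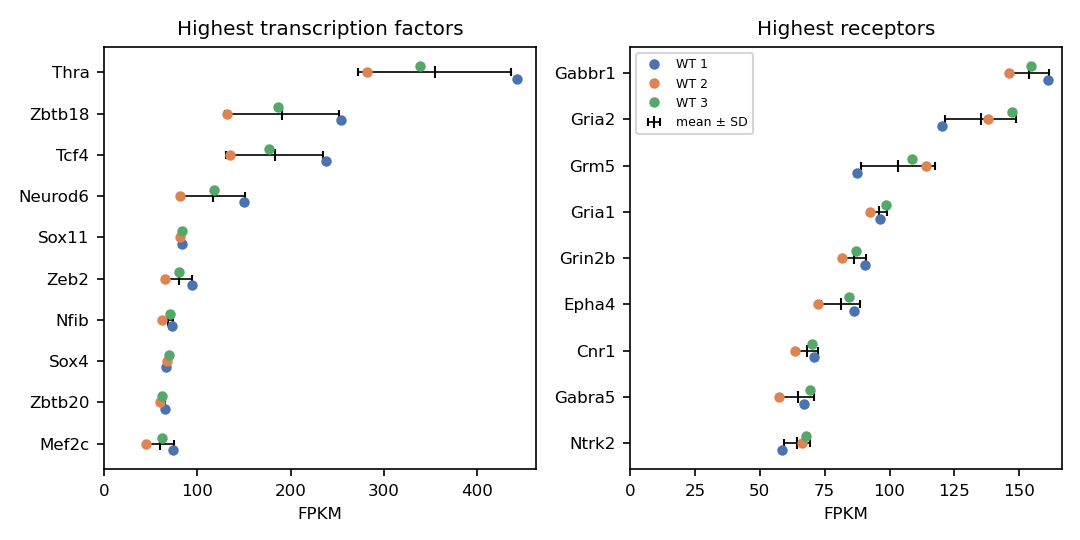
The 10 transcription factors with the highest mean (left) and 9 of the 10 such receptors (right), as FPKM on linear axes from 0, with a dot for each library and a bar for the mean ± SD over 3 libraries. Thra, Zbtb18 and Tcf4 are spread from WT 2 at the low end to WT 1 at the high end, while Sox11 at 81.8 to 83.7 FPKM and Gria1 at 92.5 to 98.8 FPKM are tight.

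Ligand genes ranged widely. Of 36 growth factors and morphogens, 27 passed. Ptn, pleiotrophin, a ligand of Ptprz1, was the highest at 289.6, 290.2 and 307.3 FPKM. Fgf13, a member of the intracellular FGF group, was at 65.5, 49.7 and 57.4 FPKM, Cx3cl1 came next, and Dkk3 was at 31.0, 16.8 and 23.9 FPKM. Bdnf, the ligand of Ntrk2, was at 6.12, 4.09 and 6.33 FPKM, and Ntf3, the ligand of Ntrk3, at 8.76, 2.76 and 5.95 FPKM. Fgf2, Bmp4, Fgf10, Bmp2, Wnt8b, Egf, Shh, Tgfb1 and Wnt3a were below 1 FPKM in every library, and Wnt3a, the signal of the embryonic cortical hem, was listed at 0 in each.

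Of 23 neuropeptide precursors, 19 passed. Cck, cholecystokinin, was second to Sst by its mean, at 197, 81.2 and 112 FPKM, and above it in WT 1. Nts, neurotensin, was at 74.99, 47.0 and 59.6 FPKM. The hypothalamic peptides Avp and Oxt were at 0, 6.54 and 3.02 FPKM and at 0, 1.12 and 0 FPKM. Avp and Cyp2g1 were the only protein-coding genes listed at 0 in 1 library and at 5 FPKM or more in another.

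For developmental switches, 24 pairs of an earlier and a later gene were compared within each library. The labels give all 3 libraries the same age, so a ratio shows which gene was higher and not whether a switch took place. The genes of a pair may also lie in different cells. Grin2b, Ina, Ptbp1, Actl6a, Dpf2, Dpf1, Phf10, Dnmt3a, Map2, Pdgfra and Igf2 share exon bases with another annotated gene. Both genes of a pair share a library, so scaling changes the ratio only through the constant added to each FPKM. The later gene was higher in all 3 libraries in 11 pairs, the earlier in 10, and 3 pairs had no common direction, counting Hbb-bs as higher than Hbb-y, which was listed at 0. The ratios are log2 of the later over the earlier gene, each FPKM raised by 0.1. In 9 pairs the difference was at least 2-fold toward the later gene in every library, and in 9 toward the earlier gene.

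The receptor and channel pairs were divided. Grin2a, the NMDA subunit of mature synapses, was at 10.6, 7.76 and 8.96 FPKM against Grin2b at 81.6 to 90.6, a log2 ratio of -3.24 ± 0.15 (SD, n = 3). Slc12a5, the chloride exporter KCC2 that makes GABA inhibitory, was at 27.6, 31.0 and 31.6 FPKM against 14.99, 15.31 and 14.95 FPKM for the importer Slc12a2, NKCC1, a log2 ratio of 0.99 ± 0.10. The NMDA pair thus had the earlier gene higher while the chloride transporter pair had the later gene higher. Slc12a2 is also expressed by choroid plexus and glia.

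Scn3a, the sodium channel of embryonic brain, was at 25.5, 31.2 and 30.8 FPKM against 7.40, 10.1 and 9.95 FPKM for Scn1a. Scn2a, listed as Scn2a1, was at 57.3, 52.3 and 58.9 FPKM against 20.8, 18.3 and 18.9 FPKM for Scn8a, which follows it at the axon initial segment. Both sodium channel pairs therefore had the earlier gene higher. Among synaptic genes, Dlg4, the scaffold PSD-95, was at 73.9, 59.6 and 65.6 FPKM, above Dlg3, SAP102, at 25.3, 23.3 and 23.9 FPKM. Camk2b, the early CaM kinase II subunit, was at 127.6, 94.0 and 107.2 FPKM, above Camk2a at 39.1, 30.4 and 35.0 FPKM. Slc17a7 was above Slc17a6 by a log2 ratio of 2.01 ± 0.50, the widest SD of these synaptic pairs, with WT 1 the highest.

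Cytoskeletal pairs had the earlier gene higher or near even. Ina, the neurofilament of young neurons, was at 53.9, 48.6 and 50.4 FPKM against Nefh at 2.58 to 2.75, a log2 ratio of -4.19 ± 0.05, the largest toward the earlier gene. Tubb5 exceeded Tubb4a, a tubulin of mature neurons and oligodendrocytes at 81.3, 55.3 and 65.5 FPKM, with a log2 ratio of -3.63 ± 0.08. Dcx exceeded Rbfox3, NeuN of mature neurons, at 22.3, 16.3 and 18.0 FPKM, with a log2 ratio of -2.76 ± 0.29. Map1b at 403.6, 363.3 and 395.2 FPKM and Map2 could not be ordered, the log2 ratio being -0.04 ± 0.16. The same held for Eno1 at 45.8, 37.0 and 38.1 FPKM and Eno2 at 43.1, 42.2 and 43.5 FPKM.

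Chromatin, splicing and cell cycle pairs mostly had the later gene higher. The BAF complex, a chromatin remodeller, swaps subunits when progenitors become neurons. Actl6b was at 36.7, 29.1 and 33.1 FPKM against 7.29, 7.98 and 8.06 FPKM for Actl6a of progenitors. Dpf1 was at 37.9, 34.7 and 35.7 FPKM against 13.0, 12.0 and 12.9 FPKM for Dpf2, and Ss18l1 at 22.3, 23.4 and 24.1 FPKM against 10.6, 10.2 and 10.8 FPKM for Ss18. Dpf3 was the exception at 6.54, 5.33 and 5.62 FPKM, below Phf10 at 15.3, 16.4 and 17.2 FPKM. Of the 4 BAF pairs, 3 thus had the neuronal subunit higher.

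Ptbp2, the neuronal splicing repressor, was at 89.7, 110.7 and 112.0 FPKM against 21.02, 22.4 and 21.6 FPKM for Ptbp1 of progenitors. Cdk5, the kinase of postmitotic neurons, was at 24.7, 20.6 and 21.7 FPKM against 9.32, 9.24 and 7.14 FPKM for Cdk1. Dnmt3a was at 29.5, 35.2 and 33.1 FPKM and the embryonic methyltransferase Dnmt3b at 0.856, 0.582 and 0.892 FPKM, below the threshold in each library. Igf2 was above Igf1, at 6.56, 6.21 and 7.29 FPKM, and Igf2 had the library order of the meningeal list that holds it. Pdgfra and Mbp had a log2 ratio of -0.20 ± 0.26 and were nearly level in WT 2, at 18.79 and 18.77 FPKM, though the pair counts among the 10, and Vim and Gfap, at 62.5, 36.6 and 46.8 FPKM, had no common direction. For the globins no ratio is given, since Hbb-y was listed at 0.

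**Figure D4:**
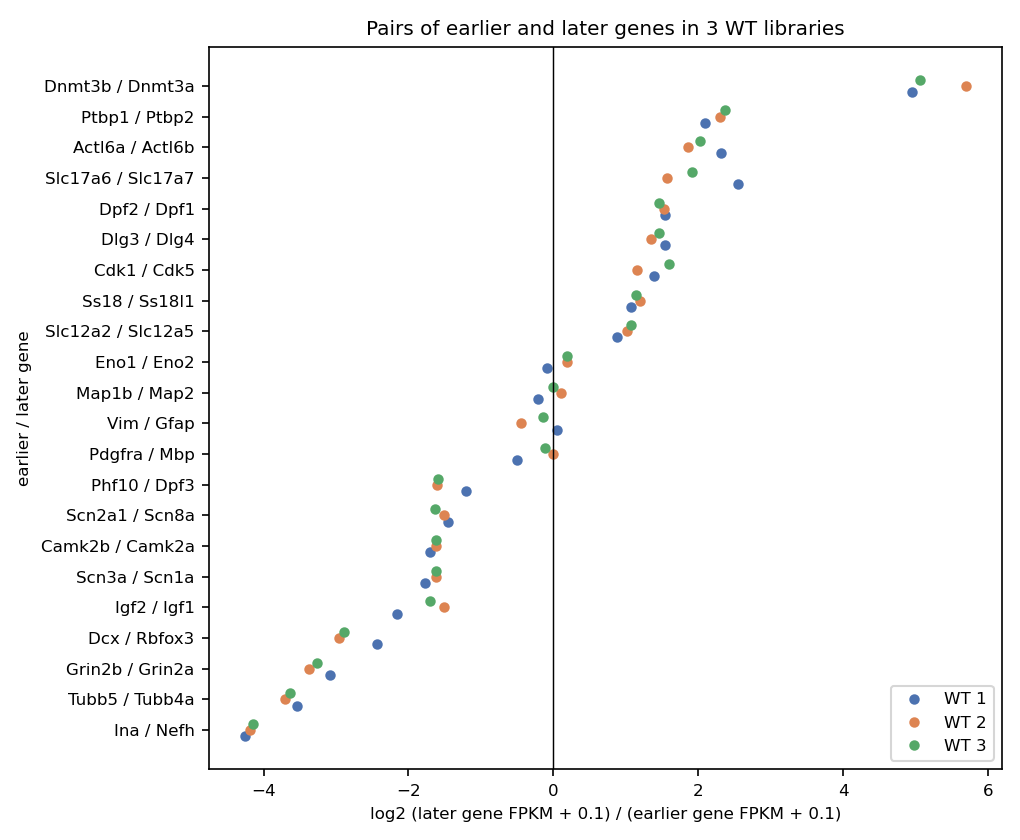
Log2 ratio of the later over the earlier gene in 22 pairs, each FPKM raised by 0.1, with a dot for each library and a vertical line at 0 where both genes are equal. Grin2b / Grin2a, Tubb5 / Tubb4a and Ina / Nefh lie far to the left at -3.24, -3.63 and -4.19, while the splicing and methyltransferase pairs and all BAF pairs but Phf10 / Dpf3 lie to the right, and the library dots of most pairs lie close together.

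Over all 12318 protein-coding genes the coefficient of variation (SD over mean of 3 libraries) had a median of 9.50%, with quartiles of 5.68% and 15.04%. It was 11.5% for genes at 1 to 10 FPKM and 8.10% for genes at 10 to 100 FPKM. In 291 genes, or 2.36%, the highest library was at least 2 times the lowest. Transcription factors had a median of 11.9% with 29 of 291 at 2 times or more, and receptors 12.7% with 11 of 175.

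The genes that varied most, with a mean of at least 5 FPKM, were mainly those already described. By the ratio of the highest to the lowest library, the largest included Xist, Rxrg, Foxp2, Eif2s3y, Eid1, Penk, Rarb, Defb11, Ppp1r1b, Ddx3y, Drd1, Ttr, Ebf1 and Dach1. Rxrg, a retinoid X receptor of striatum, was at 1.77, 28.8 and 17.7 FPKM, and Rarb, a retinoic acid receptor, at 1.504, 20.1 and 13.2 FPKM. Rxrg, Dach1, Eid1 and Defb11 belong to no marker list. Eid1, which inhibits differentiation, was at 134.2, 9.45 and 64.0 FPKM, and Defb11, a defensin gene, at 14.6, 1.27 and 7.42 FPKM. Eid1 shares exon bases with another gene. Eid1 and Defb11 were highest in WT 1 and lowest in WT 2, an order shared by the Y genes, Ttr, Slc17a7 and Neurod6. WT 3 lay between, as in all 47 protein-coding genes with that mean and a ratio of at least 3. A cause was not tested.

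The 10 steadiest genes of at least 20 FPKM were Ube2q1, Bcl2l1, Camsap1, Rpn2, Fyn, Atl1, Vps41, Igfbp5, Arpc5 and Mau2. They were picked as the smallest values among many genes with 3 libraries each, so they are not shown to be stable. Ube2q1, a ubiquitin-conjugating enzyme, was at 20.7, 20.8 and 20.7 FPKM, a coefficient of variation of 0.120%. Bcl2l1, which blocks apoptosis, was at 33.6, 33.5 and 33.7 FPKM, and Fyn, a kinase of myelination and neuronal migration, at 59.2, 58.97 and 58.9 FPKM. At the threshold, Mcm10 at 1.035, 1.0007 and 1.066 FPKM and Kdm8 at 1.0013, 1.41 and 1.18 FPKM were the last inside, and Rbpms at 0.999, 1.08 and 1.25 FPKM and Ier3 at 0.999, 1.70 and 2.15 FPKM the first outside.

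Promoters differed in base composition between genes that passed and the rest. RefSeq windows of 300 bases, from 250 before to 50 after the annotated start on GRCm38.p6, were matched by symbol for 9656 genes that passed and 4470 other protein-coding genes. A window was counted as CpG-rich with a GC content of at least 50% and at least 0.6 of the CpG that its base composition predicts. CpG-rich windows made up 72.2% of the genes that passed and 18.3% of the others, beside 55.1% of all 14126 protein-coding genes with a window. The share was 34.1% of all 27025 windows, which are not limited to protein-coding genes. Among the genes that passed, the share was 66.6% at a mean under 10 FPKM, 77.5% at 10 to 100 and 73.7% at 100 FPKM or more. By list it was 12 of 15 for immature neurons and 1 of 14 for astrocytes, 1 of 16 for microglia and 0 of 7 for erythroid cells.

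The letters TATAA were searched on the strand of the gene, starting 40 to 20 bases before the start. They were in 1.62% of the genes that passed and 7.29% of the others, beside 3.41% of all protein-coding genes with a window. Of all windows, protein-coding or not, 3.83% held them. Among genes at 100 FPKM or more they were in 13 of 247, or 5.26%. Genes with TATAA had a median coefficient of variation of 13.1% (n = 156) and genes without 9.39% (n = 9500). Within levels the medians were closer at 10 to 100 FPKM, 8.98% against 7.96%, and at 100 FPKM or more, 9.85% against 8.29%, than under 10 FPKM, 15.5% against 11.4%. The 60 bases before the start are shown for examples of highly expressed genes with and without these letters. They were chosen from only part of the genes with a window, so higher genes of either kind may exist. Sequences run 5′ to 3′ on the strand of the gene, with TATAA in capitals. Tubb3 is on the plus strand at chr8:123411493-123411552, and the others are on the minus strand: Tubb2a at chr13:34078009-34078068, Tuba1a at chr15:98953502-98953561 and Eef1a1 at chr9:78481725-78481784.
Tubb3: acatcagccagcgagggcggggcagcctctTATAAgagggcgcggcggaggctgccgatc
Tubb2a: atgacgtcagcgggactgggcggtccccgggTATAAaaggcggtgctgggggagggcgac
Tuba1a: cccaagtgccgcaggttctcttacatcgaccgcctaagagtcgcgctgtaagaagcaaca
Eef1a1: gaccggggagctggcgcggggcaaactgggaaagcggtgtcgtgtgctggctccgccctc
Tubb2a, with TATAA 29 bases before the start, was at 669.3, 479.8 and 573.8 FPKM. In Eef1a1 the letters begin 25 bases after the RefSeq start, outside the part searched, so the result depends on which start is annotated.

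**Figure D5:**
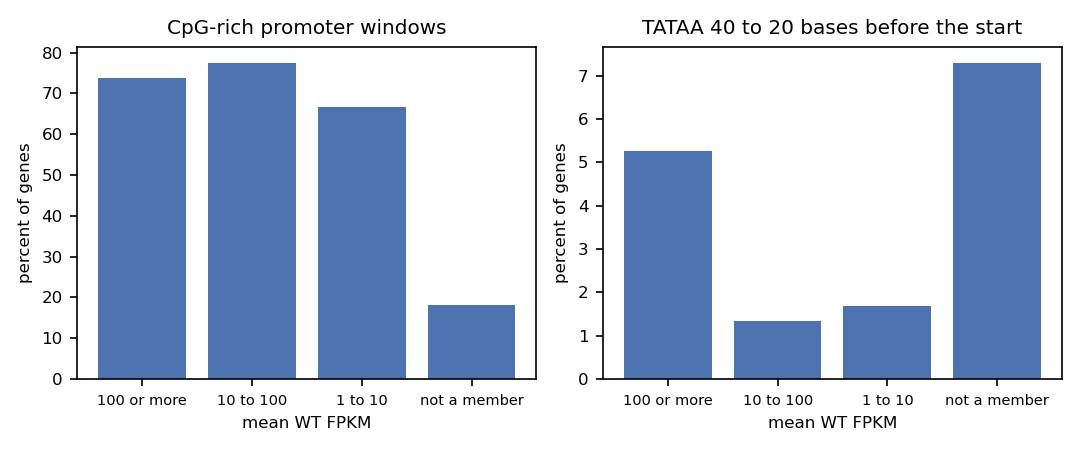
Percent of protein-coding genes with a CpG-rich window (left) and with TATAA from 40 to 20 bases before the start (right), by mean FPKM in the WT libraries, as bars from 0. CpG-rich windows are at 66.6% to 77.5% of genes that passed and 18.3% of the others, and TATAA is at 5.26% of genes at 100 FPKM or more and 1.35% of those at 10 to 100 FPKM.

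Cell cycle promoters shared the letters CCAAT. Searched on both strands (CCAAT or ATTGG) over the 300 bases, they were in 21 of 23 cell cycle genes with a window, or 91.3%, beside 37.9% of all windows and 38.9% of all genes that passed. Of the 23, 14 had 2 or more. The 3 highest cell cycle genes with a match in the 120 bases before the start are shown with each match in capitals, all on the minus strand: Pcna at chr2:132253181-132253300, Top2a at chr11:99024190-99024309 and Mcm6 at chr1:128359706-128359825.
Pcna: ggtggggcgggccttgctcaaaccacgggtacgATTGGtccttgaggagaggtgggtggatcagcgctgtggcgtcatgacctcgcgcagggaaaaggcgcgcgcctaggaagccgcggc
Top2a: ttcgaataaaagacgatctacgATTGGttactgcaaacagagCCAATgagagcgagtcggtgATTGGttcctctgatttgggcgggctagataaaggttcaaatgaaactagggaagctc
Mcm6: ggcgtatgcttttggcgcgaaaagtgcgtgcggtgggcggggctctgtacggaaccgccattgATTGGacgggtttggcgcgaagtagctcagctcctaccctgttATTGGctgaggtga
Top2a held 3 matches in this stretch, Mcm6 2 and Pcna 1. Mcm6, a helicase subunit, was at 11.1, 10.1 and 10.5 FPKM. A match of letters is a description of these windows and does not show that a factor binds there.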

How the data were processed

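RNA was read from the hippocampus of mouse pups, in 3 WT libraries of a table of 12. Per the labels' protocols, 100 ng or more of total RNA, whose integrity number was 7.0 or higher, was depleted of ribosomal RNA, made into stranded libraries and read for 100 cycles from both ends. The authors deposited FPKM per gene, made with TopHat, Bowtie, Cufflinks and Cuffdiff on mm10 per the submitters' processing notes. Versions, order, scaling between libraries and use of strand are not given in the sources used here, and any scaling shifts all genes of a library together. Short genes and near-identical copies have uncertain FPKM.

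Groups came from the sample titles. The values were used as deposited. Genes at 1 FPKM or more in all 3 libraries were kept and ranked by mean FPKM, with mean, SD and coefficient of variation computed in Python 3.11.15 with pandas 2.3.3 and numpy 2.4.6. With 1 group no test was made and no p-value is given. GENCODE M21 gave type, length and exon overlap for 29258 genes by ID, and 28072 of these have the same symbol. In 26 rows the symbol is a spreadsheet date, and these were matched by ID. Promoter and microRNA sequences are from RefSeq, GRCm38.p6. The functions were tested on simulated data.

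The genes, lists, families and pairs were chosen with earlier results of these data known. Named were the 15 highest protein-coding genes, the 10 highest factors and receptors and the leaders of families, up to 4 highest of each list with those below 1 FPKM throughout, both genes of each pair, the 15 most and 10 least variable genes, those at the threshold and the sex-linked genes. Others were named after their values were seen. Some genes that these rules name are counted but not reported here. Alternatives were other thresholds and scalings, other rankings, a pseudocount of 1 and leaving out each library.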

Additional observations from a re-analysis of the deposited data

How the results depend on the processing

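A minimum of 5 FPKM lowered the number of genes from 14789 to 9612, of transcription factors from 291 to 168 and of receptors from 175 to 106. Minimums of 0.5 and 2 FPKM gave 16437 and 12824 genes. Leaving out each library in turn gave 14982 to 15252 genes, 292 to 300 transcription factors and 176 to 182 receptors. Scaling each library to a sum of 1e6 without small RNA genes gave 17397 genes. The pairs with the later gene higher stayed at 11 or 12 and with the earlier gene higher at 10 or 11 under every scaling and without each library. The Map1b and Map2 ratio was -0.04 with all 3 libraries, 0.052 without WT 1, -0.106 without WT 2 and between these without WT 3. A minimum of 5 FPKM left 4 of the 13 striatal genes and 2 of the 10 choroid plexus genes. With a mean of at least 20 FPKM, 15 rather than 47 genes (without small RNA genes, predicted genes and pseudogenes) differed 3 times or more between libraries. Scaling to 1e6 gave 73 such genes over all genes and 119 without small RNA genes. Such scaling lets more genes reach the minimums and also has its own factor for each library. What raised the count was not tested. Of 240 list counts under all alternatives, 218 moved by at most 1.5 times. The FPKM hold no counts, so genes near 1 FPKM, with few fragments behind them, are the least certain. No paired analysis was possible because only 1 group was used and no test was made.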

Other observations

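The level of a ligand beside its receptor differed between systems. Ptn was at 289.6 to 307.3 FPKM and its receptor Ptprz1 at 115 to 135 FPKM, while Bdnf was at 4.09 to 6.33 FPKM and its receptor Ntrk2 at 58.5 to 67.9 FPKM. Kit was at 22.2, 12.4 and 17.4 FPKM with its ligand Kitl at 14.0, 13.4 and 15.3 FPKM. By chromosome, 33.3% of the 6 Y genes in the table passed 1 FPKM in all 3 libraries, beside 60.8% to 76.2% of the protein-coding genes on the autosomes and 64.1% on the X.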
